A study of Mus musculus with 11 samples.

Results

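Transcripts of 8 genes of insulin-like growth factor (IGF) signalling were followed in hematopoietic stem cells (HSC) of NA10hd, NV and control mice. The genes were taken by symbol from the 37991 Ensembl gene IDs of the count table, and all 8 were found. They are the ligand gene Igf1, the receptor genes Igf1r, Igf2r and Insr, the receptor substrates Irs1 and Irs2, and the IGF-binding protein genes Igfbp4 and Igfbp7. NA10hd mice carry a NUP98-HOXA10HD fusion gene, with a 3xFlag tag and IRES-Tdtomato, knocked into ROSA26 behind a loxP-flanked stop cassette that Vav-Cre removes in blood cells. NV mice carry a conditional NrasG12D allele beside a normal Nras allele, activated by the same Cre. Control mice are named wild type in the labels, and whether they carried Cre or an unrecombined allele was not clear from the sources used here. All mice were C57BL/6 and 8 weeks old, and the cells were sorted from bone marrow as Lin-CD48-c-Kit+Sca1+CD135-CD150+ in aliquots of 1000. RNA-Seq libraries numbered 4 for control, 4 for NA10hd and 3 for NV, 11 in all. The labels do not say whether the aliquots of a group came from separate animals, so p-values measure only the spread between these libraries.

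IGF1 is a secreted growth factor made mainly by the liver and also by many other tissues, and its gene responds to growth hormone. IGF1 and IGF2 bind the receptor tyrosine kinase IGF1R, and IGF2 and insulin bind the insulin receptor, INSR. Both receptors phosphorylate the adaptor proteins IRS1 and IRS2, which recruit PI3 kinase and lead to Akt, mTOR and FoxO. IGF2R has no kinase and carries IGF2 to the lysosome, and its gene is imprinted. The IGF-binding proteins hold the ligands outside the cell and limit their access to the receptors. In bone marrow, IGF signalling is known from studies of HSC quiescence, growth and aging.

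Sequencing depth, as the total count of a library, lay between 5464815 and 14283008, and the shallowest and the deepest library were a control and an NV library. Levels are given as CPM, that is counts scaled to a common library size after TMM correction over the 11 libraries. The HSC markers Kit, Hlf and Mecom were present in every group, with mean levels of 314, 403 and 224 CPM in control. Of 8 genes for surface proteins that the sort selected against, Cd2 and Cd3e had 0 counts in every library and Cd8a and Ly6g 1 count each. Flt3, which encodes CD135, averaged 10.5, 13.9 and 7.23 CPM in control, NA10hd and NV, Cd48 averaged 1.79, 0.1001 and 3.62 CPM, and Cd4 and Itgam averaged at most 1.55 CPM in any group. Of these 8 genes, 2 were tested in NA10hd against control and 4 in each comparison with NV, and edgeR called none. Of all genes tested, edgeR called 0.00766% in NA10hd against control, 4.76% in NV against control and 5.09% in NA10hd against NV. Cd48 came nearest to a call, in NA10hd against NV (log2 difference -4.87, edgeR adjusted p = 0.0643). Libraries differed in the sex of their cells. Y-linked genes alone were seen in control replicates 1 and 4 and in NA10hd replicates 1 to 3, Xist alone in NA10hd replicate 4, and both kinds in control replicates 2 and 3 and in every NV library. In such bulk libraries, fewer cells that express a gene and less RNA per cell cannot be told apart.

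The promoters of the ligand gene and of 2 receptor genes are shown because Igf1 and Igf2r were the members called different between genotypes, while Igf1r serves as a member whose levels were not called different. They are the 250 bases before the RefSeq gene start in GRCm38.p6, printed 5′ to 3′ on the strand of the gene, with every CG in capitals. The Igf1 promoter (chr10:87860861-87861110, plus strand), the Igf2r promoter (chr17:12769707-12769956, minus strand) and the Igf1r promoter (chr7:67952007-67952256, plus strand) read as follows.
Igf1: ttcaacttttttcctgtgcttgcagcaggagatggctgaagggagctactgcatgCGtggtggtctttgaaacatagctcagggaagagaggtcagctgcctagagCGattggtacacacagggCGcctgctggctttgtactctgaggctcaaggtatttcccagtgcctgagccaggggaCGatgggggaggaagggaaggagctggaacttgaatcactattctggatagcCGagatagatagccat
Igf2r: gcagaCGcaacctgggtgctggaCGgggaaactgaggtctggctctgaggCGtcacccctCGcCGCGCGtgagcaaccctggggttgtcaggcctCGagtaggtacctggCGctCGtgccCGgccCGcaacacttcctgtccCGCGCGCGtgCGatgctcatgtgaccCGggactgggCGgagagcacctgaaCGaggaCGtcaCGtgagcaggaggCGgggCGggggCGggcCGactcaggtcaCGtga
Igf1r: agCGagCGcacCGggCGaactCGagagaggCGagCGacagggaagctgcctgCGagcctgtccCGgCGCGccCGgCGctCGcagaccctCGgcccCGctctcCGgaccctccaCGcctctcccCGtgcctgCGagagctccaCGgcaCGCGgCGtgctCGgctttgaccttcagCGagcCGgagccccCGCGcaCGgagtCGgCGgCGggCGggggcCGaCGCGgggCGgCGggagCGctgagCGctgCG
The Igf1 window held 5 CG, near the median of 6 over 32851 RefSeq windows of the same length, and 49.6% of these windows held as few or fewer. The Igf2r window held 27 CG and the Igf1r window 42, and 92.4% and 99.3% of all windows held as few or fewer. Windows were found for 7 of the 8 members, all but Insr. The other 4 held 22 CG (Igfbp4) to 34 CG (Irs2), so Igf1 stood alone among the 7 with few CG. The letters TTCNNNGAA, which Stat5 dimers bind, were searched on both strands and lay in none of the 7 windows and in 7.02% of all windows. GTAAACA, a FoxO motif, lay in none of the 7 and in 3.17% of all. TATAAA lay in the Igfbp4 window alone of the 7 and in 12.4% of all.

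Igf1 (ENSMUSG00000020053, chromosome 10, 87321010 to 87399792 of NCBIM37, plus strand, protein coding) encodes the ligand. It stood at 47.3, 14.8, 25.3 and 41.3 CPM in control replicates 1 to 4. In NA10hd replicates 1 to 4 it stood at 105, 88.5, 119 and 44.96 CPM, and in NV replicates 1 to 3 at 0.160, 1.84 and 2.03 CPM. NV libraries lay below every other library, and only NA10hd replicate 4 reached into the control range. The mean was 32.2 ± 14.8 CPM in control (SD, n = 4), 89.4 ± 32.1 in NA10hd (n = 4) and 1.34 ± 1.03 in NV (n = 3). The NV values rest on 2, 27 and 21 counts, and the exact Poisson 95% intervals of 0.0193 to 0.577, 1.21 to 2.68 and 1.26 to 3.10 CPM lie below the lowest control library. These intervals hold no more than counting error, because the libraries were amplified without molecular identifiers.

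In NV against control, Igf1 fell by 4.59 on the log2 scale (SE 0.62, 95% interval -5.93 to -3.24, edgeR adjusted p = 0.00169), a 24.0-fold lower level. It was the only member called in this comparison, 1 of 6 tested, where a call needs an edgeR adjusted p under 0.05 and a fold above 1.5 and 4.76% of all 13462 genes tested passed. In NA10hd against control, the log2 difference of Igf1 was 1.49 (SE 0.36, 95% interval 0.71 to 2.26), and its edgeR adjusted p of 0.201 did not pass. No member was called in this comparison (0 of 5 tested, against 0.00766% of 13060 genes), and Igf1 was the only member with an unadjusted p under 0.05, which 11.9% of all genes had. The NA10hd libraries spread more than the others. The edgeR common dispersion, a measure of spread between libraries of a group, was 0.352 in NA10hd, 0.0923 in control and 0.0929 in NV. DESeq2, which called 1.92% of the genes it tested there, did call Igf1 (log2 difference 1.48, adjusted p = 0.0108), while limma-voom, which called 0.0153%, did not (1.69, adjusted p = 0.128). With each library left out in turn, the difference ran from 1.24 to 1.73 and its edgeR adjusted p from 0.108 to 0.615, and none of the 8 fits made the call.

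Compared directly, Igf1 was 66.6-fold higher in NA10hd than in NV (log2 difference 6.06, SE 0.62, 95% interval 4.69 to 7.42, edgeR adjusted p = 0.000476). Igf1 and Igf2r were the members called here, 2 of 6 tested, against 5.09% of all 13461 genes. The NA10hd and NV libraries did not overlap, since the lowest NA10hd level was 44.96 CPM and the highest NV level 2.03 CPM.

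Sex and marker genes of other cells moved with Igf1, and their part in the differences was not tested. Among control libraries, Igf1 was higher in those with only Y-linked counts (47.3 and 41.3 CPM) than in those with both (14.8 and 25.3 CPM), and the NA10hd library with only Xist counts had the lowest NA10hd level. Restricted to libraries with the same mix, the NV difference was -3.90 (edgeR adjusted p = 0.0296) and the NA10hd difference 1.23 (adjusted p = 0.768), from 2 control libraries each. Over all genes, 4.76% were called in NV against control and 5.09% in NA10hd against NV. Of 10 endothelial markers, 3 of 7 tested (Vwf, Emcn and Cldn5) were called lower in NV than in control and 4 of 8 tested (Kdr, Emcn, Cldn5 and Vwf) higher in NA10hd than in NV. Their summed level lay between 428 and 444 CPM in control libraries, 453 and 573 in NA10hd libraries and 229 and 289 in NV libraries, and HSC are known to express Vwf, Emcn and Tie1 themselves. Cdh5 of the same list averaged 0.287, 1.47 and 0 CPM in control, NA10hd and NV, and ran from 0 to 5.82 CPM in NA10hd libraries. Pecam1 and Kdr stood higher. Pecam1 averaged 17.7, 19.998 and 12.9 CPM in control, NA10hd and NV, without a call, and Kdr 16.9, 26.5 and 8.43 CPM. Of 8 megakaryocyte markers, 4 of 7 tested (Pf4, Ppbp, Itga2b and Treml1) were called higher in NV, with sums between 105 and 130 CPM in control libraries, 84.6 and 146 in NA10hd libraries and 208 and 483 in NV libraries. Of 8 erythroid markers, 2 of 3 tested (Klf1 and Epor) were called higher in NV, with sums of 58.0 to 74.5, 53.8 to 72.4 and 88.4 to 135 CPM. Of the HSC markers, Ly6a was called higher and Procr and Fgd5 lower in NV than in control, and Procr, Hlf, Fgd5 and Hoxb5 were called higher in NA10hd than in NV. Between the mutants, 3 of 7 megakaryocyte markers tested (Pf4, Ppbp and Itga2b) and 1 of 4 erythroid markers tested (Klf1) were called lower in NA10hd than in NV. No marker of any of these lists was called in NA10hd against control, where edgeR called 0.00766% of all genes.

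Stromal and macrophage cells of the marrow are known sources of IGF1, and the sort left out cells with lineage markers such as Mac1. None of the 10 stromal and 10 macrophage markers found was called by edgeR in any of the 3 comparisons. The stromal markers summed to between 7.43 and 18.3 CPM in control libraries, 10.5 and 25.8 in NA10hd libraries and 4.06 and 8.94 in NV libraries, with Col1a2 the most abundant, while Col3a1 and Bglap had 0 counts in every library and Lepr averaged 0.199, 0 and 0 CPM. The macrophage markers summed to 443 to 562, 395 to 530 and 507 to 539 CPM, of which Lyz2 alone held 436 to 553, 373 to 518 and 493 to 531. The defining macrophage genes Csf1r and Emr1 had 0 CPM in control and NA10hd and averaged 0.547 and 0.374 CPM in NV. C1qc and Mrc1 of the same list were ordered like Igf1 across the groups, without a call, and the other markers of the list were not. C1qc averaged 1.85, 3.47 and 0.0322 CPM in control, NA10hd and NV (NA10hd against NV, log2 difference 6.46, edgeR adjusted p = 0.0716). Mrc1 averaged 1.85, 2.71 and 0.769 CPM. In NA10hd libraries C1qc ran from 0 to 6.30 CPM and Mrc1 from 0 to 8.73 CPM. Of 2 neutrophil and 3 lymphoid markers tested in NA10hd against NV, Prtn3 was called higher and Nkg7 lower in NA10hd. In that comparison 5.09% of all genes were called, and no marker of either list was called against control. Mpo and Il7r of these lists averaged at most 0.0303 and 0 CPM in any group, while other genes of the lists stood higher. Prtn3 averaged 338, 449 and 268 CPM in control, NA10hd and NV, Cd79b 53.8, 70.1 and 44.7 CPM, Lck 34.9, 35.7 and 34.2 CPM and Nkg7 12.0, 6.48 and 39.1 CPM.

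**Figure D1:**
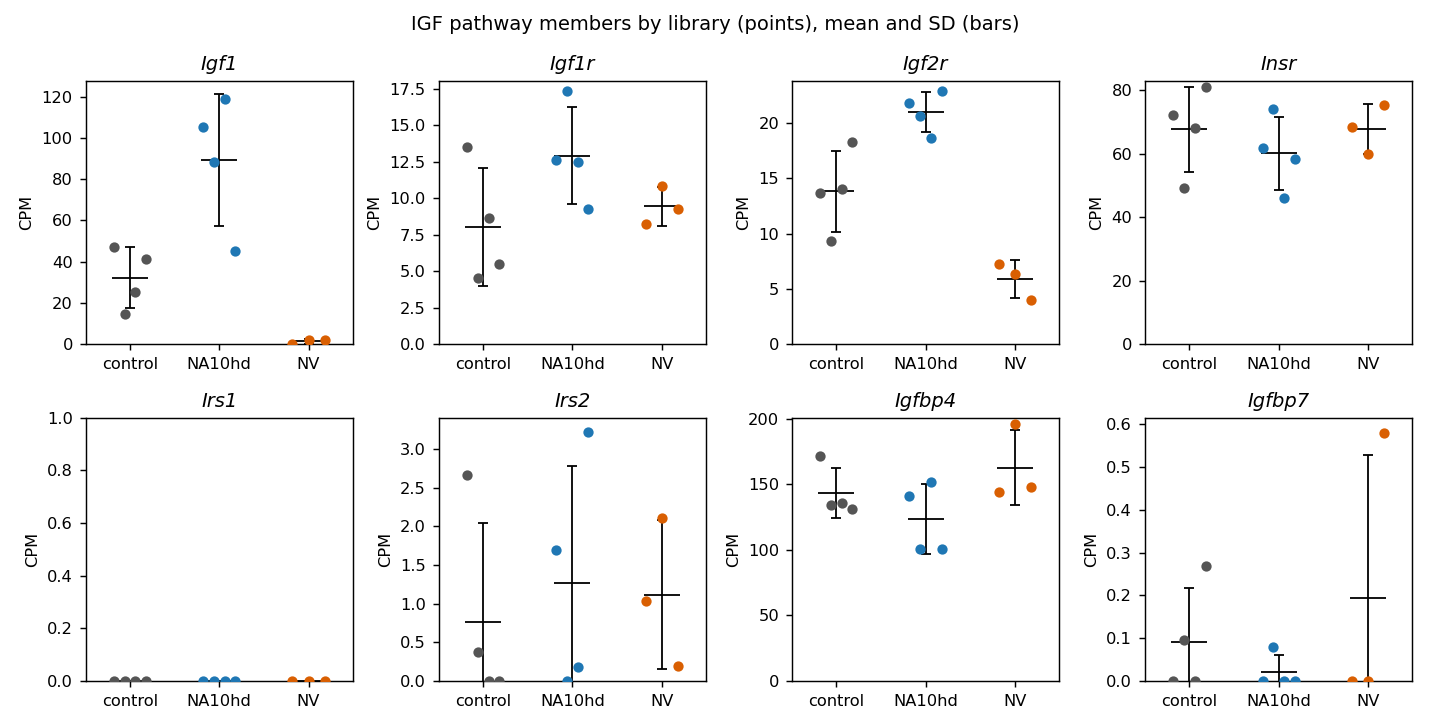
Levels of the 8 members by genotype. The y axis gives CPM on a linear scale from 0, each point is a library (4 control, 4 NA10hd, 3 NV), the horizontal line is the group mean and the error bar the SD, clipped at 0. Igf1 reached 119 CPM in NA10hd and at most 2.03 CPM in NV, and the Igf2r points of the 3 genotypes do not overlap.

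Igf2r (ENSMUSG00000023830, chromosome 17, 12875272 to 12962530, minus strand, protein coding) encodes the receptor that clears IGF2. Control replicates 1 to 4 had 13.7, 9.30, 14.1 and 18.3 CPM. NA10hd replicates had 21.8, 20.6, 18.6 and 22.8 CPM, and NV replicates 7.27, 6.34 and 3.96 CPM. The 3 groups did not overlap, with NV lowest and NA10hd highest, although the highest control and the lowest NA10hd library were close. Group means were 13.8 ± 3.66 CPM in control (SD, n = 4), 21.0 ± 1.81 in NA10hd (n = 4) and 5.86 ± 1.71 in NV (n = 3).

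Igf2r was 3.57-fold higher in NA10hd than in NV (log2 difference 1.84, SE 0.39, 95% interval 0.98 to 2.69, edgeR adjusted p = 0.0232). This call was lost when any 1 of the NV libraries was left out, with edgeR adjusted p of 0.0733, 0.109 and 0.140 without replicates 1, 2 and 3 and log2 differences of 2.02, 1.89 and 1.62. Against control, neither genotype passed the edgeR test. The log2 difference was -1.24 in NV (SE 0.35, 95% interval -1.998 to -0.49, adjusted p = 0.0597) and 0.61 in NA10hd (SE 0.31, 95% interval -0.06 to 1.27, adjusted p = 0.467). In NV the edgeR call was made without control replicate 2 (-1.40, adjusted p = 0.0429), and DESeq2, which called 6.92% of the genes it tested, called it with all libraries (-1.24, adjusted p = 0.0151). Library ranges apart were not rare in these data. They were apart for Igf1 and Igf2r in NV against control, as for 18.9% of all genes, for Igf2r alone in NA10hd against control, as for 7.92%, and for Igf1 and Igf2r in NA10hd against NV, as for 21%. With the same mix of sexes, the Igf2r difference from control was -0.999 in NV (edgeR adjusted p = 0.282) and 0.34 in NA10hd. Airn, a transcript on the opposite strand of Igf2r that shares no exonic base with it, held 686 counts over all libraries against 1525 for Igf2r.

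**Figure D2:**
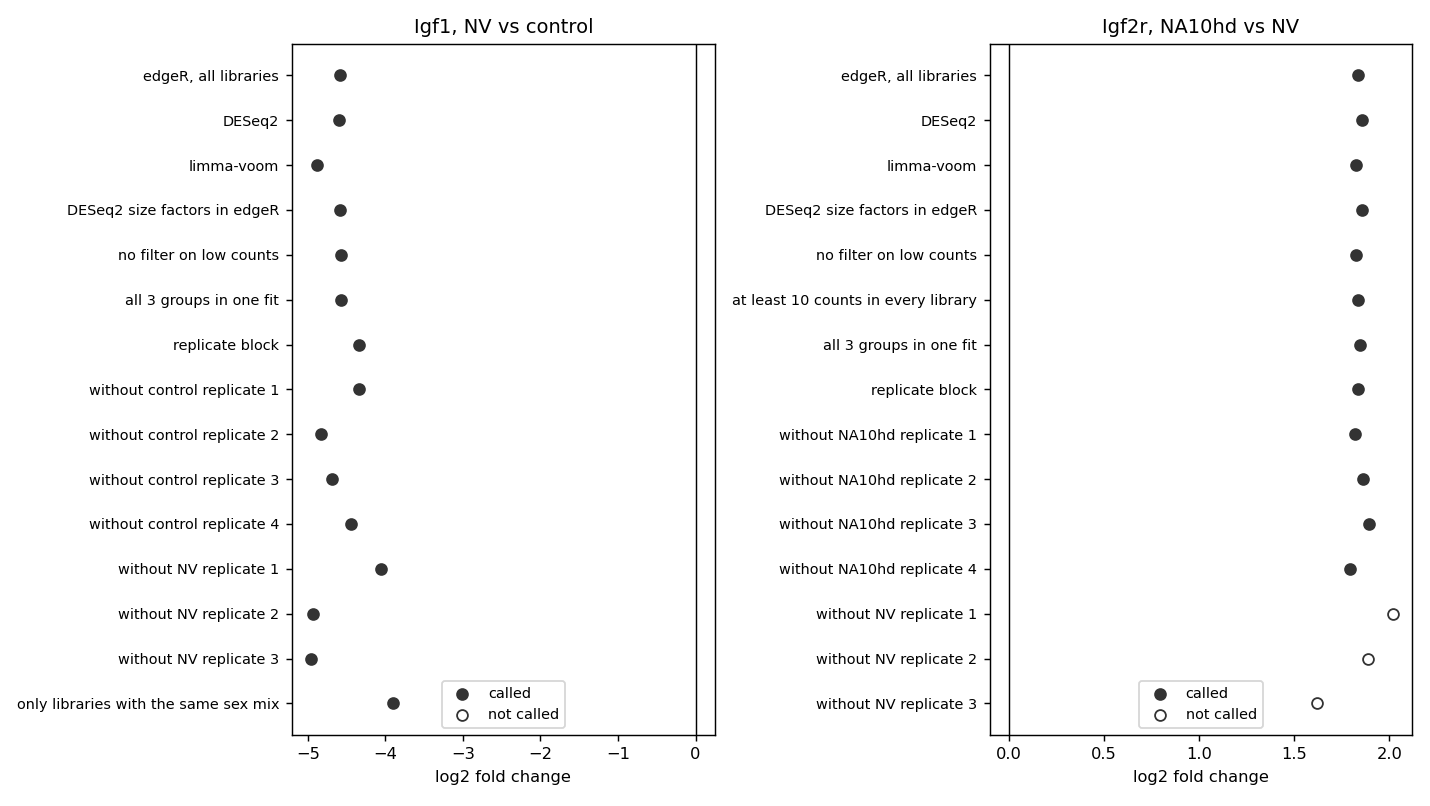
Log2 differences of Igf1 in NV against control (left) and of Igf2r in NA10hd against NV (right) under each setting named on the y axis. Each point on the x axis is an estimate, filled where called and open where not. Igf1 runs from -4.96 to -3.90 and is called under every setting drawn, while Igf2r runs from 1.62 to 2.02 and is not called when any 1 of the NV replicates is left out.

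Igf1r (ENSMUSG00000005533, chromosome 7, 75097713 to 75371484, plus strand, protein coding) encodes the main receptor of IGF1. Control replicates 1 to 4 had 13.5, 4.56, 8.63 and 5.50 CPM. NA10hd replicates had 12.6, 17.4, 12.5 and 9.24 CPM, and NV replicates 8.23, 10.8 and 9.27 CPM. The groups overlapped, with control replicate 1 above 3 of the 4 NA10hd libraries. The mean was 8.05 ± 4.04 CPM in control (SD, n = 4), 12.9 ± 3.35 in NA10hd (n = 4) and 9.45 ± 1.32 in NV (n = 3). No comparison passed the edgeR test, with log2 differences of 0.70 in NA10hd against control (95% interval -0.26 to 1.65, adjusted p = 0.560), 0.23 in NV against control (-0.63 to 1.09, adjusted p = 0.816) and 0.46 in NA10hd against NV (-0.45 to 1.36, adjusted p = 0.623). The upper ends of all 3 intervals reach past 1 on the log2 scale.

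Insr (ENSMUSG00000005534, chromosome 8, 3150922 to 3279617, minus strand, protein coding) encodes the insulin receptor, which pairs with IGF1R in hybrid receptors. Control replicates 1 to 4 had 72.2, 49.3, 68.1 and 81.2 CPM, NA10hd replicates 62.0, 74.1, 46.1 and 58.4 CPM, and NV replicates 68.4, 59.8 and 75.5 CPM. All 3 groups spanned much the same levels, with means of 67.7 ± 13.4, 60.1 ± 11.5 and 67.9 ± 7.86 CPM (SD, n = 4, 4 and 3). The log2 difference was -0.01 in NV against control, with a 95% interval of -0.40 to 0.39 (edgeR adjusted p = 0.991). It was -0.16 in NA10hd against control (95% interval -0.63 to 0.30, adjusted p = 0.813) and -0.17 in NA10hd against NV (-0.65 to 0.30, adjusted p = 0.738). All 3 intervals stay within 1 of 0 on the log2 scale.

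The balance of the 2 tyrosine kinase receptors was read within each library, where scaling between libraries cannot move it, and 0.5 was added to each count. With this addition, Igf1r counts were 18.8%, 9.34%, 12.7% and 6.85% of Insr counts in control replicates 1 to 4. They were 20.4%, 23.5%, 27.2% and 15.9% in NA10hd replicates and 12.1%, 18.2% and 12.3% in NV replicates. These shares were not corrected for annotated exonic length, which is 4476 bases for Igf1r and 9669 bases for Insr. Control replicate 1 lay within the NA10hd range, and the other 3 control libraries lay below it. The mean log2 ratio was -3.17 ± 0.62 in control (SD, n = 4), -2.23 ± 0.33 in NA10hd (n = 4) and -2.84 ± 0.33 in NV (n = 3). The NA10hd ratio exceeded that of control by 0.94, with an exact two-sided permutation p of 0.0571 where 0.0286 is the smallest possible, or 0.171 adjusted over the 3 comparisons. NA10hd exceeded NV by 0.62 (exact permutation p = 0.114, adjusted 0.171) and NV exceeded control by 0.33 (exact permutation p = 0.571, adjusted 0.571), and neither of these comparisons can go below 0.0571. The NV difference from control was 0.58 without control replicate 1, 0.093 without control replicate 4 and 0.13 without NV replicate 2.

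Of the receptor substrates, Irs1 (ENSMUSG00000055980, chromosome 1, 82229676 to 82287991, minus strand, protein coding) had 0 counts in all 11 libraries. Over their 112761488 counts, a count of 0 allows a level of up to 0.0266 CPM, taken as 3 counts. The opposite-strand gene Gm9747, which covers 30.9% of the Irs1 exonic bases, also had 0 counts. Irs2 (ENSMUSG00000038894, chromosome 8, 10986980 to 11008458, minus strand, protein coding) was close to the limit of detection. Its counts were 15, 4, 0 and 0 in control replicates 1 to 4, 14, 0, 2 and 23 in NA10hd replicates, and 13, 31 and 2 in NV replicates. Every genotype held libraries at 2 counts or fewer beside libraries above 10 counts. Irs2 passed the filter on low counts in both comparisons with NV, and the log2 differences of 0.67 from control (SE 1.31, edgeR adjusted p = 0.842) and 0.16 in NA10hd against NV (SE 1.42, adjusted p = 0.970) were smaller than their errors.

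Igfbp4 (ENSMUSG00000017493, chromosome 11, 98902558 to 98913969, plus strand, protein coding), whose product binds and restrains IGF1 and IGF2, was the most abundant member. It stood at 171, 134, 136 and 131 CPM in control replicates 1 to 4, at 141, 101, 152 and 100.3 CPM in NA10hd replicates, and at 144, 196 and 148 CPM in NV replicates. The groups overlapped, with means of 143 ± 19.0, 124 ± 26.8 and 163 ± 28.7 CPM (SD, n = 4, 4 and 3). None of the log2 differences of -0.21 (NA10hd against control, 95% interval -0.60 to 0.19, edgeR adjusted p = 0.693), 0.17 (NV against control, -0.14 to 0.49, adjusted p = 0.583) and -0.39 (NA10hd against NV, -0.85 to 0.055, adjusted p = 0.327) passed. Igfbp7 (ENSMUSG00000036256, chromosome 5, 77778265 to 77837070, minus strand, protein coding), an IGF-binding protein also made by endothelial cells, had 10 counts in all. They were 1 count in control replicate 2, 2 in control replicate 4, 1 in NA10hd replicate 2 and 6 in NV replicate 3, and Igfbp7 was tested in no comparison. On its opposite strand lies Polr2b, which shares 85 bases of exon with it, 7.01% of the Igfbp7 exonic length, and held 10494 counts.

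**Figure D3:**
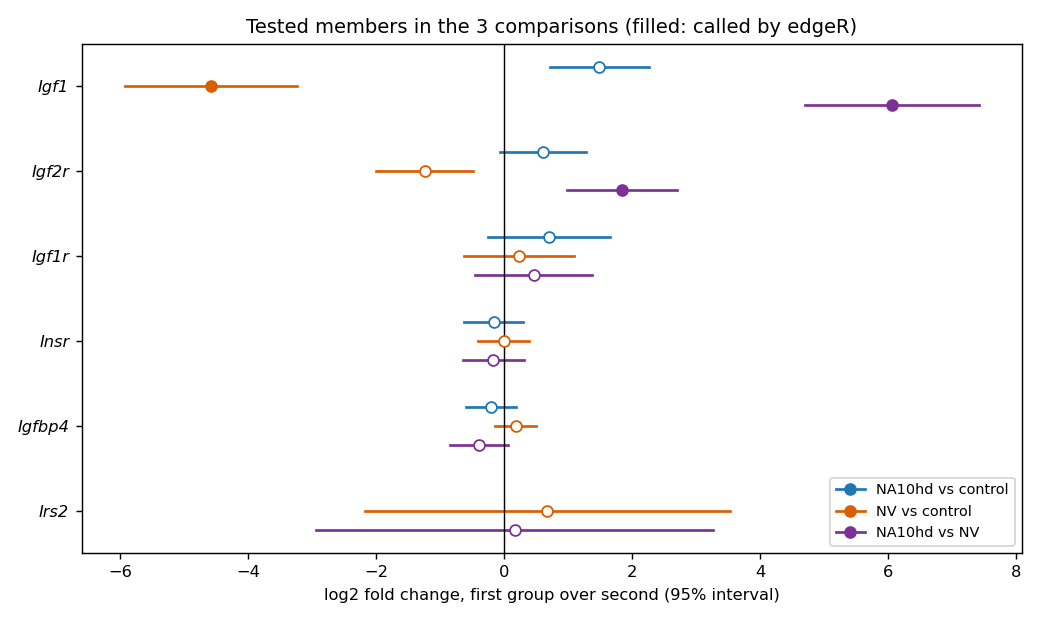
Log2 differences of the tested members in the 3 comparisons. Points are edgeR estimates on the x axis, horizontal bars are 95% intervals for a single gene without adjustment, and filled points are the calls. Igf1 is called at -4.59 in NV against control and at 6.06 in NA10hd against NV, Igf2r is called at 1.84 in NA10hd against NV, and the Irs2 bars are the widest.

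Over the 5 members tested in NA10hd against control, the median log2 difference was 0.61, beside 0.02 over all genes tested. It was 0.08 over 6 members in NV against control, beside -0.01, and 0.31 over 6 members in NA10hd against NV, beside 0.01. The comparisons of NA10hd and of NV with control share the 4 control libraries. Side by side, Igf1 differed from control by 1.49 and -4.59, Igf2r by 0.61 and -1.24, Igf1r by 0.70 and 0.23, Insr by -0.16 and -0.01 and Igfbp4 by -0.21 and 0.17 in NA10hd and NV, on the log2 scale.

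Levels of different members were compared per length, as CPM per kilobase of annotated exon (RPKM). The annotated exonic lengths run from 1213 bases for Igfbp7 to 9921 bases for Igf1, and Igf1r, at 4476 bases, is annotated with less exonic sequence than Igf2r or Insr. In control, Igfbp4 led with a mean of 60.6 RPKM, followed by Insr at 7.002, Igf1 at 3.24, Igf1r at 1.80 and Igf2r at 1.46 RPKM. Igf1 overlapped Igf1r in range, and Igf1r overlapped Igf2r. In NA10hd, Igf1 took the place behind Igfbp4, at 9.01 against 52.3 RPKM, with a range that overlapped that of Insr at 6.22 RPKM. In NV, the order was Igfbp4 at 68.9, Insr at 7.02, Igf1r at 2.11, Igf2r at 0.621, Irs2 at 0.277, Igfbp7 at 0.159 and Igf1 at 0.135 RPKM. There Igf1 stood above Irs1 alone, and its range overlapped that of Igfbp7. Among the genes that passed the filter on low counts over the 3 genotypes, Igf1 ranked above 56.5% in NA10hd, 33.0% in control and 3.08% in NV by mean RPKM, while Igfbp4 ranked above 90.6% to 93.1% in the 3 genotypes.

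Over the 11 libraries, the genes whose log2 CPM were most like those of Igf1, by Pearson correlation among 14012 genes, were Pdgfc (r = 0.980), Ccdc136 (0.975), Itfg3 (0.957), Cldn5 (0.956) and Pde9a (0.956). The libraries form 3 genotypes, so these values describe a shared order of groups and carry no test. Pdgfc, a platelet-derived growth factor gene, averaged 32.8 ± 10.9 CPM in control (SD, n = 4), 61.5 ± 9.52 in NA10hd (n = 4) and 2.86 ± 1.85 in NV (n = 3). It was called lower in NV than in control (log2 difference -3.54, edgeR adjusted p = 0.00146) and higher in NA10hd than in NV (4.44, adjusted p = 0.000492). Cldn5, a tight junction gene of endothelial cells, averaged 9.02 ± 3.03, 31.7 ± 20.6 and 0.696 ± 0.319 CPM in the same order. Its calls were -3.71 in NV against control (edgeR adjusted p = 0.00236) and 5.51 in NA10hd against NV (adjusted p = 0.00104). The calls of Pdgfc and Cldn5 held in all 7 fits that left out a library. Ccdc136 and Pde9a, a cyclic GMP phosphodiesterase gene, were called in the same 2 comparisons, and Itfg3 in NA10hd against NV alone. Pde9a lost both calls without NV replicate 1 or 2, with edgeR adjusted p up to 0.101 against control and 0.115 between the mutants, and lost that against control with the same mix of sexes (adjusted p = 0.0887). Ccdc136 lost its call against control without NV replicate 3 (edgeR adjusted p = 0.0512) or with the same mix of sexes (adjusted p = 0.150), and that between the mutants without NA10hd replicate 3 or any 1 NV replicate (adjusted p up to 0.112). Itfg3 lost its call without NA10hd replicate 1 or 3 or any 1 NV replicate (edgeR adjusted p up to 0.194). Among the members, Igf2r had the closest pattern to Igf1 (r = 0.843), Igf1r had an r of 0.296, and Insr, Irs2 and Igfbp4 had values of -0.176, -0.226 and -0.383.

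**Figure D4:**
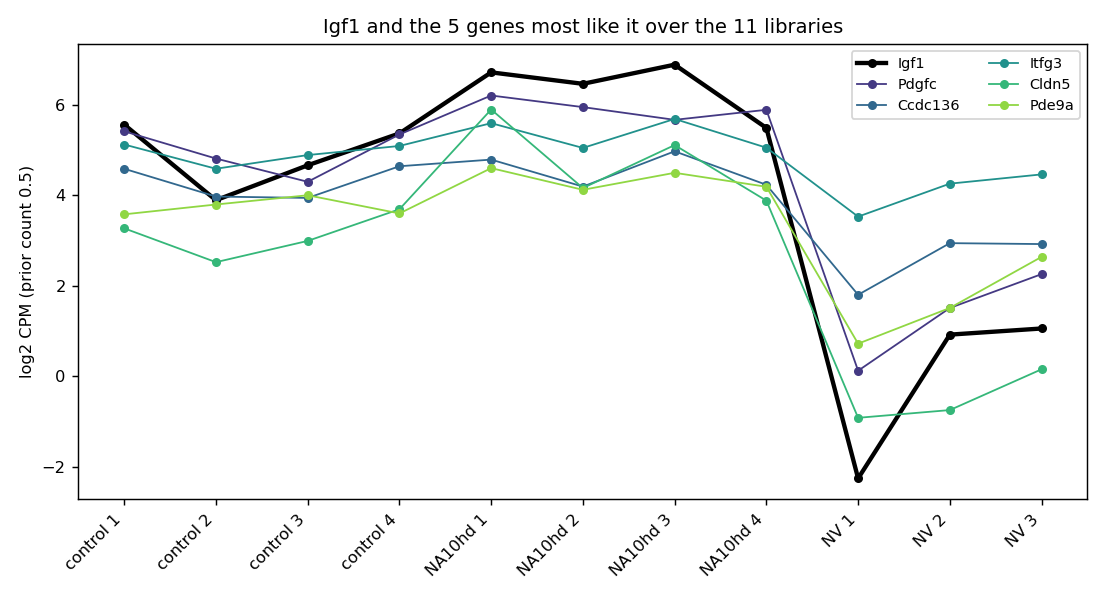
Log2 CPM of Igf1 and of the 5 genes most like it in each of the 11 libraries, with a prior count of 0.5. Lines join the values of a gene for reading only, since libraries have no order, and all 6 genes have their lowest values in NV libraries.

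Genes around the 8 members were read from lists that were chosen with earlier results known. Of 15 other ligands, binding proteins and proteases, 10 had 0 counts in all 11 libraries, among them Ins1, Ins2, Igfbp1, Igfbp2, Igfbp3, Pappa and Htra1. Stc2, Igfbp6, Igfbp5 and Igfals held 104, 27, 9 and 2 counts over all libraries, and of these only Stc2 was tested, in NV against control, without a call (log2 difference -1.01, edgeR adjusted p = 0.685). Igf2, the imprinted gene of the other IGF ligand, held 3833 counts. It stood at 38.8, 13.1, 17.0 and 27.1 CPM in control replicates 1 to 4, at 38.6, 73.4, 103 and 78.3 CPM in NA10hd replicates and at 2.72, 1.77 and 3.28 CPM in NV replicates. NV libraries lay below all others, as for Igf1, and NA10hd replicate 1 lay within the control range. Igf2 fell by 3.22 on the log2 scale in NV against control (SE 0.43, edgeR adjusted p = 0.00169), or by 2.55 with the same mix of sexes (adjusted p = 0.0245), and was higher by 4.83 in NA10hd than in NV (SE 0.41, adjusted p = 0.000269). The difference of 1.63 in NA10hd against control did not pass edgeR (SE 0.36, adjusted p = 0.154), and DESeq2 called it (1.62, adjusted p = 0.00344).

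Of 3 genes of Igf2 mRNA-binding proteins, Igf2bp2 alone was tested. Its mean was 28.0 ± 9.82 CPM in control (SD, n = 4), 40.2 ± 5.12 in NA10hd (n = 4) and 11.4 ± 1.67 in NV (n = 3). It was called higher in NA10hd than in NV (log2 difference 1.81, SE 0.28, edgeR adjusted p = 0.00475), and the call held in all 7 fits that left out a library. Its call in NV against control (-1.29, SE 0.30, edgeR adjusted p = 0.0246) held in 2 of 7 such fits, being lost without control replicate 1 or 4 or any 1 NV replicate, with adjusted p up to 0.113, and it was lost with the same mix of sexes (-0.84, adjusted p = 0.196).

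Of 18 receptor adaptors and regulators, such as Grb10, Shc1 and Ptpn1, 15 were tested in NV against control and 1 was called higher, near the 4.76% of all genes called there. This was Dok2, an adaptor that restrains Ras signalling, with 26.6 ± 6.17 CPM in control (SD, n = 4) and 49.1 ± 12.4 in NV (n = 3), a log2 difference of 0.88 (edgeR adjusted p = 0.0482). When libraries were left out in turn, the call was made in 1 of 7 fits, that without control replicate 3, and the adjusted p reached 0.203 without NV replicate 1. It was also lost in the joint fit (edgeR adjusted p = 0.178) and with the same mix of sexes (adjusted p = 0.158). None of the 16 tested in either other comparison was called by edgeR, and 3 had an unadjusted p under 0.05 in NA10hd against control, where 11.9% of all genes did, and 2 in NA10hd against NV, where 19.5% did.

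Of 30 PI3K, Akt, mTOR and FoxO genes, 28 were tested in NV against control and Pik3r1 alone was called, where 4.76% of all genes were called. Pik3r1, the p85 regulatory subunit that IRS proteins bind, had 209, 138, 178 and 214 CPM in control replicates 1 to 4, 225, 251, 278 and 119 CPM in NA10hd replicates and 92.4, 111 and 77.7 CPM in NV replicates. NV libraries lay below all others, and NA10hd replicate 4 lay below the control range. Pik3r1 fell by 0.99 on the log2 scale in NV against control (SE 0.18, edgeR adjusted p = 0.00716), a call lost without NV replicate 3 (adjusted p = 0.0512), in the joint fit of all 3 genotypes (0.0760) and with the same mix of sexes (0.0774), and was higher by 1.22 in NA10hd than in NV (SE 0.27, adjusted p = 0.0267). The latter call held in 3 of 7 fits with a library left out, and was lost without NA10hd replicate 3 or any 1 NV replicate. Foxo1, a transcription factor that Akt keeps out of the nucleus, was the other of 2 called among 29 tested in NA10hd against NV, near the 5.09% of all genes called there, with 104 ± 12.5 against 56.3 ± 15.9 CPM (log2 difference 0.89, edgeR adjusted p = 0.0451). It was called in 2 of 7 such fits, and without NV replicate 3 its adjusted p was 0.225. None of the 28 tested in NA10hd against control was called by edgeR, where 4 had an unadjusted p under 0.05, beside the 11.9% of all genes. The median log2 difference of the list was 0.19, 0.02 and 0.12 in NA10hd against control, NV against control and NA10hd against NV, beside 0.02, -0.01 and 0.01 over all genes.

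Of 4 genes of the growth hormone axis, which drives Igf1 in other tissues, Ghr, the growth hormone receptor gene, was called lower in NV than in control, 1 of 4 tested, where 4.76% of all genes were called. It stood at 27.4, 25.0, 27.2 and 27.2 CPM in control replicates 1 to 4, at 30.4, 25.8, 23.2 and 10.5 CPM in NA10hd replicates and at 5.51, 9.76 and 17.3 CPM in NV replicates. Control libraries were close together and all above NV, and NA10hd replicate 4 fell within the NV range. The log2 difference of -1.32 in NV against control (SE 0.33, edgeR adjusted p = 0.0383) was called in 1 of 7 fits with a library left out, the fit without NV replicate 3, and its adjusted p reached 0.153 without NV replicate 2. The Ghr call was also lost in the joint fit of all 3 genotypes (edgeR adjusted p = 0.162) and with the same mix of sexes (adjusted p = 0.170). Jak2, Stat5a and Stat5b were called in no comparison by edgeR.

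**Figure D5:**
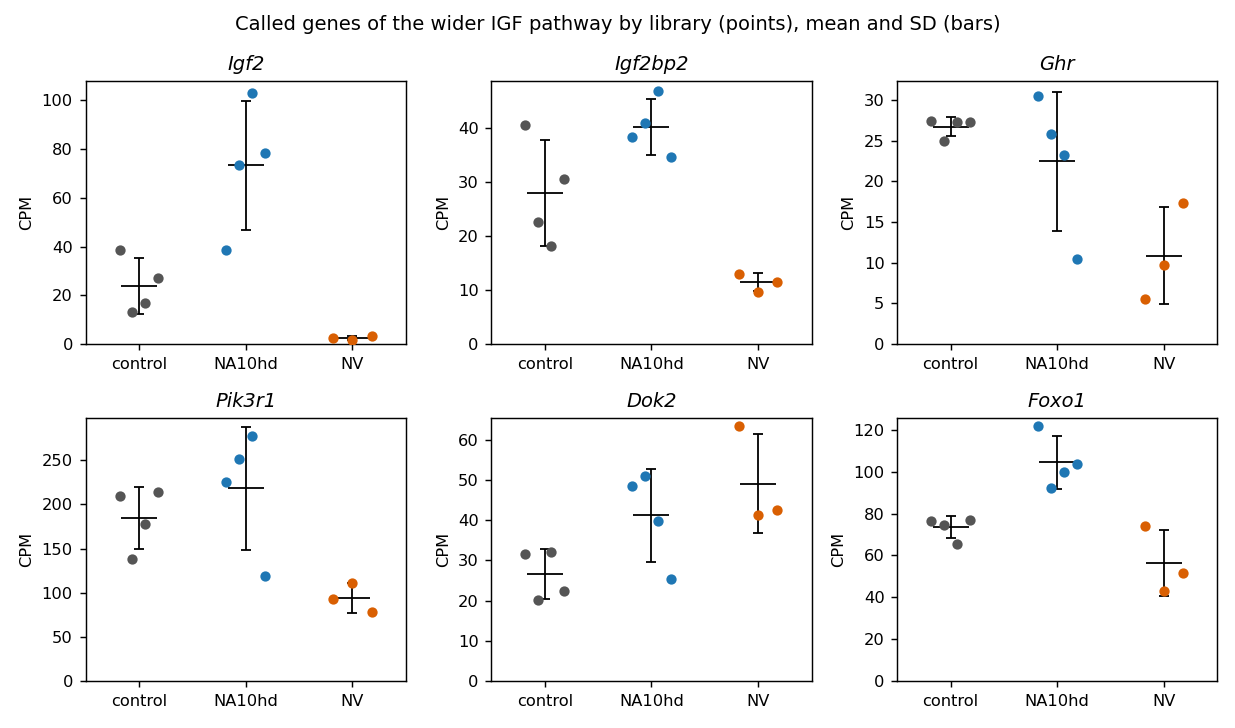
Levels of the 6 genes of the wider IGF pathway that were called in a comparison. The y axis gives CPM from 0 on a linear scale, points are libraries (4 control, 4 NA10hd, 3 NV), horizontal lines are means and error bars the SD. Igf2 reaches 103 CPM in NA10hd and at most 3.28 CPM in NV, and NA10hd replicate 4 is the lowest NA10hd point for Ghr, Pik3r1 and Dok2.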

How the data were processed

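RNA-Seq counts of 4 control, 4 NA10hd and 3 NV libraries were analysed. The authors sorted HSC, amplified full-length cDNA, prepared Nextera XT libraries and sequenced them on a NextSeq500. The deposited values are raw counts per Ensembl gene, made per the submitters' processing notes with HISAT2 on NCBIM37 and featureCounts, without normalization. Versions, annotation release, strand setting and treatment of reads with several hits are not given in the sources used here, so opposite-strand exons could share reads and polyA-primed, amplified cDNA carries no molecular identifiers.

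Groups follow the genotype that the labels give each library. Gene symbols and NCBIM37 positions were looked up in GENCODE, where 37205 of 37991 gene IDs matched. Each of the 3 comparisons was fitted on its own libraries across all genes by edgeR 4.0.16 (R 4.3.3) after TMM scaling, using its default filter on low counts, the quasi-likelihood test and Benjamini-Hochberg adjustment over all genes tested. A call needed an adjusted p under 0.05 and a fold above 1.5. The standard error was taken from the log2 difference and the F statistic, and 95% intervals are for single genes. Of the 8 members, 5 passed the filter in NA10hd against control and 6 in each comparison with NV. The Igf1r to Insr ratio, with 0.5 added to counts, was compared by exact two-sided permutation tests (scipy 1.17.1), adjusted over the 3 comparisons. Limits from a count of 0 were taken as 3 counts. Total counts per library ranged from 5464815 to 14283008.

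The alternatives were DESeq2 1.42.0, limma-voom (limma 3.58.1), DESeq2's size factors in edgeR, no filter, a minimum of 10 counts in each library, a joint fit of all 3 groups, a replicate block, no fold threshold, only libraries with the same mix of sexes, a pseudocount of 5 for the ratio, and each library left out in turn. Besides the members, the genes named were those called in each pathway list, at most 4 per list and comparison, with Igf2, the 5 genes most like Igf1, and marker genes. The members and all lists were chosen with earlier results of these data known. Adgre1 was not found by symbol and was read as Emr1. The fusion and mutant alleles were not checked, since gene counts do not separate them. Promoter sequences came from RefSeq (GRCm38.p6), and no position was carried between builds. Figures were drawn with matplotlib 3.10.9.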

Additional observations from a re-analysis of the deposited data

Results flagged for a closer look

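Igf1 and Igf2r were marked because the effects of the 2 mutant genotypes against the shared control differed when tested directly. The Igf1 difference between NA10hd and NV was 6.06 on the log2 scale (edgeR adjusted p = 0.000476), with all 4 NA10hd libraries above all 3 NV libraries. The Igf2r difference was 1.84 (edgeR adjusted p = 0.0232), with the same separation of libraries.

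A library far from the others of its group was looked for in the 16 sets of 4 libraries that the members give in control and NA10hd by Dixon's test of the gap to the nearest library as a share of the range, whose 95% limit chance alone passes in about 5% of sets. Irs2 in control replicate 1 stood at 2.67 CPM, from 15 counts, with a gap of 0.858 of the range. Igfbp4 in the same library stood at 171 CPM, with a gap of 0.883, and this library had the fewest counts of all, 5464815. Igfbp7 in NA10hd replicate 2 stood at 0.0801 CPM beside 3 libraries at 0, a gap of 1 times the range, which rests on 1 count.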

How the results depend on the processing

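Of 249 values of members under alternatives, 230 kept their direction and their side of the threshold, 3 lost a call, 4 gained one and 12 turned sign. Igf1 in NV against control ran from -4.96 to -3.90 and in NA10hd against NV from 5.53 to 6.57, called wherever tested. With at least 10 counts in every library Igf1 was not tested against NV, so 1 member was called in NA10hd against NV, and the single call in NV against control was Igf2r (edgeR adjusted p = 0.0434). DESeq2 called 1 member in NA10hd against control (Igf1) and 2 in NV against control (Igf1 and Igf2r). With a library left out, 1 to 2 members were called in NV against control, 2 without control replicate 2, and 1 to 2 in NA10hd against NV, 1 when NV replicate 1, 2 or 3 was left out.

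Values that turned sign belonged to Insr and Irs2, and none of them passed a test. Insr in NV against control became 0.027 under limma-voom, 0.11 under the replicate block and 0.20 with the same mix of sexes, and ran from -0.14 to 0.095 with a library left out. Irs2 in NA10hd against NV became -1.28 under limma-voom and -1.27 under the replicate block, and ran from -0.88 to 1.003 with a library left out. Irs2 in NV against control ran from -0.20 (without NV replicate 2) to 1.12 with a library left out, and up to 2.54 with the same mix of sexes. The cause was not tested. The differences in the Igf1r to Insr ratio ran, with a library left out, from 0.71 to 1.19 in NA10hd against control, from 0.093 to 0.58 in NV against control and from 0.50 to 0.81 in NA10hd against NV, and with a pseudocount of 5 they were 0.89, 0.28 and 0.61.

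Replicate numbers did not pair the libraries. Libraries of the same number had correlations of deviations from -0.0741 to 0.0366, and a replicate block gave -4.34 for Igf1 in NV against control (edgeR adjusted p = 0.0131) and 1.83 for Igf2r in NA10hd against NV (adjusted p = 0.0384), with no change in any call of a member. It lost the calls in NV against control of Igf2bp2 (adjusted p = 0.0608), Ghr (0.0605), Dok2 (0.0978) and Ccdc136 (0.0778), and in NA10hd against NV that of Itfg3 (0.0509).

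Counts of all genes called depended on the tool. In NA10hd against control edgeR called 1 gene, DESeq2 238, the fit of all 3 groups 39, limma-voom 2 and both other filters 8, with 0 under the block and the same mix of sexes and 0 to 5 with a library left out. In NV against control 641 became 1015, 155 with all 3 groups, 301 with the same mix and 263 to 643. In NA10hd against NV 685 became 1480 with DESeq2, 1152 with all 3 groups and 146 to 771. No common mix of sexes existed for NA10hd against NV. Irs1, Irs2 and Igfbp7 had 0, 104 and 10 counts over all libraries, too few for differences to be read at this depth.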
